A study of Mus musculus with 6 samples.

Results

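Cholesterol and fatty acid synthesis in mouse prostate and in prostate tumors was followed through 32 genes, those of the enzymes and regulators of both pathways that had been listed by name, out of 24091 genes in the deposited count table. All 32 symbols were found and all 32 passed the filter on low counts, as did 15050 genes in all. Of these genes, 16 encode steps of sterol synthesis, 5 encode the SREBP system that controls both pathways, and 11 encode fatty acid synthesis, its supply of carbon and NADPH, and desaturation and elongation of the products. Few of the 32 passed the test in any comparison. 15 of the 16 sterol genes had a higher estimate in tumors with a short polyglutamine tract than in tumors with a long one. Over all tested genes it was 7550 of 15050. The 16 genes were measured in the same libraries and are not replicates of the contrast, and no single gene of the 32 passed the test there.

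The data were 6 RNA-seq libraries of mouse prostate, 2 in each of 3 groups. In the 12Q group, tumors came from males in which a humanised allele encodes a polyglutamine tract of 12 residues, and in the 48Q group the tract has 48. Tumors of both groups also carried, as the labels spell them, Ctnnb1(Ex3)L/wt, a β-catenin allele whose exon 3 can be removed by Cre so that the protein escapes degradation, and PBCre-4, a transgene that drives Cre from a probasin promoter in prostate epithelium. WT stands for normal prostate from wild-type animals, which carry none of the 3 alleles, so in each contrast with WT the tract, the β-catenin allele, Cre and the tumor state cannot be told apart. Between 12Q and 48Q the labels differ only in the tract. The labels give no age and do not say that replicates were separate animals, so p-values reflect only how far these libraries spread, and that spread may be technical. Counts per gene do not resolve exon 3 of Ctnnb1 and were not used to check the labels.

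Cholesterol is built from acetyl-CoA through mevalonate, isoprenoid units, squalene and lanosterol, and the last part of the route trims lanosterol to cholesterol. Fatty acids are built from the same acetyl-CoA, which ATP citrate lyase makes from citrate, by acetyl-CoA carboxylase and fatty acid synthase, and are then elongated and desaturated. The genes of both routes are switched on by SREBP transcription factors, which SCAP escorts from the endoplasmic reticulum when sterols are low and INSIG proteins hold back when sterols are high. In the prostate, lipid synthesis is known to respond to androgen.

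Library totals ran from 26416181 to 28559546 counts. Levels are given as CPM, read counts relative to the library total after TMM scaling (trimmed mean of M-values), and a count of 3 in a library corresponds to 0.0856 to 0.156 CPM. The TMM factors of the WT pair were 0.708 and 0.811, of the 12Q pair 1.02 and 1.13, and of the 48Q pair 1.21 and 1.24. Scaling by library totals instead moved the median log2 fold change of all tested genes to 0.48 in 12Q against WT, 0.71 in 48Q against WT and -0.19 between the tumors. The tissues also differed in cell markers. Summed over 8 prostate luminal and secretory genes, the level was 72095 to 105723 CPM in WT, 12834 to 16529 in 48Q and 6239 to 22314 in 12Q, with Msmb at 0 counts in 12Q replicate 2. The WT sum was mostly Tgm4 and Pbsn, at means of 59357 and 22179 CPM. In 12Q against WT, 3 of the 8 log2 fold changes were positive (Krt8, Krt18 and Msmb) and 5 negative, and only Pbsn passed the test. In 48Q against WT, 1 was positive and 7 negative, and 0 passed. Summed over 6 smooth muscle genes it was 2310 to 5839 CPM in WT, 295 to 841 in 48Q and 36.3 to 44.4 in 12Q, and over 6 basal cell genes 755 to 1262, 489.9 to 564 and 47.7 to 59.98. Cell cycle genes, 8 of them, summed to 93.2 to 99.9 CPM in WT, 209 to 326 in 48Q and 534 to 704 in 12Q. Of 8 adipocyte genes, whose cells are rich in the fatty acid enzymes, the sum was 1.72 to 11.1 CPM in WT, 12.1 to 22.8 in 48Q and 21.2 to 31.4 in 12Q. Adipoq, Cidec, Lep, Retn and Pck1 were at 0 in both 12Q libraries, where Fabp4, which macrophages and endothelium also express, was 21.2 and 31.3 CPM. The part of these markers in the results that follow was not tested. In bulk tissue, fewer cells of a type and less RNA per cell cannot be told apart.

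For the 3 genes that passed the test in any comparison, and for Hmgcs1, whose window holds the sterol regulatory element searched for, the sequence just before the gene start is shown here so that the motifs can be seen. The sequences are from RefSeq (GRCm38.p6), plus strand, 5′ to 3′, with matches to 3 motifs in capitals: the sterol regulatory element TCACNCCAC, which SREBP binds, the CCAAT box CCAAT, which NF-Y binds, and the GC box GGGCGG, which Sp1 binds, each on either strand. The regions are chr13:119690101-119690350 for Hmgcs1, chrX:72918271-72918520 for Nsdhl, chr15:82147019-82147180 for Srebf2 and chr3:129532136-129532354 for Elovl6.
Hmgcs1: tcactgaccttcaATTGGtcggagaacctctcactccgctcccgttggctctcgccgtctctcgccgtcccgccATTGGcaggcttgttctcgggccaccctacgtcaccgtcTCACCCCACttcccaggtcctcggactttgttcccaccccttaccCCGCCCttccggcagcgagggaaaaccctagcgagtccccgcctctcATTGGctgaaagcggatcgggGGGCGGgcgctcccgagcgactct
Nsdhl: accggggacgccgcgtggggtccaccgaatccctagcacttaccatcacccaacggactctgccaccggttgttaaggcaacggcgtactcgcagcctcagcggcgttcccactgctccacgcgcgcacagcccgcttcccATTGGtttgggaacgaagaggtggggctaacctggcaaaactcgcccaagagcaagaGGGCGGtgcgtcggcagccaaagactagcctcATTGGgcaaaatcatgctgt
Srebf2: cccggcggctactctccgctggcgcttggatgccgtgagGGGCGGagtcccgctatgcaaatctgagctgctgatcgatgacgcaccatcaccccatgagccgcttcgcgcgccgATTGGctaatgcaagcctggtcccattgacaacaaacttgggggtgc
Elovl6: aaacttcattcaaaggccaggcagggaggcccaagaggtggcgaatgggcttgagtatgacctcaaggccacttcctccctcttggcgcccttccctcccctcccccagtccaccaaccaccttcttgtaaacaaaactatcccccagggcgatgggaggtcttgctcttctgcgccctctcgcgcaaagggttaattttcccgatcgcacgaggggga
The Hmgcs1 stretch holds TCACCCCAC 137 to 129 bases before the gene start, beside 3 CCAAT boxes and 2 GC boxes. The Nsdhl stretch holds 2 CCAAT boxes and 1 GC box, the Srebf2 stretch 1 of each, and the Elovl6 stretch no match to these letters. In the Srebf2 and Elovl6 stretches the bases nearest the RefSeq gene start, 88 and 31, are left out because an annotated transcript begins there.

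RefSeq promoter windows of 300 bases, 250 before and 50 after the gene start, were at hand for 26 of the 32 genes and for 27025 genes in all. The 27025 were not limited to genes past the filter on low counts, which all 32 passed, so the 2 sets are not alike in expression. Fdps, Fdft1, Sqle, Scd1, Scd2 and Fads1 had no entry. Of the 26 windows, 22 (84.6%) held a CCAAT box, against 41.1% of all windows. A GC box was present in 20 (76.9%), against 38.2% of all windows, and the letters of a CCAAT box read from the other strand can run into those of a GC box. TCACNCCAC was found in 1 of the 26 windows, that of Hmgcs1, and in 1.44% of all windows. A match describes letters in this window and is not a measured site.

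In 12Q tumors against WT, Srebf2, the SREBP of the cholesterol genes, and Nsdhl, a C4 sterol decarboxylase of the late pathway, were higher, by 2.21 and 2.28 times. They were 2 of the 32 genes (edgeR quasi-likelihood test, Benjamini-Hochberg adjusted p under 0.05), beside 11.2% of all tested genes called higher, 11.2% called lower and 22.4% called in either direction. None of the 32 was called lower, and 30 did not pass, of which 5 had an unadjusted p under 0.05. With the called genes included, 7 of the 32 had an unadjusted p under 0.05, beside 5796 of the 15050 tested genes. Log2 fold changes were at least 1 in 3 of the 32, beside 19.9% of all tested genes, and at most -1 in 4, beside 20.7%. DESeq2 called 3 of the 32 higher (Nsdhl, Srebf2 and Elovl6), beside 15.4% of all genes to which it gave an adjusted p, and 3 lower (Insig1, Scd1 and Fads1), beside 15.8%.

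In 48Q tumors against WT, Elovl6, which elongates palmitate to stearate, was 8.95 times higher, and it was the only one of the 32 genes called, beside 3.95% of all tested genes called higher, 1.23% called lower and 5.18% in either direction. Of the other 31, 6 had an unadjusted p under 0.05. With Elovl6 included it was 7 of the 32, beside 3749 of the 15050 tested genes. DESeq2 called the same 1 higher, beside 10.3% of all genes with an adjusted p, and 4 lower (Fdps, Fdft1, Sqle and Lss), beside 6.21%.

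Between 12Q and 48Q tumors, edgeR called 0 of the 32 genes in either direction, beside 1.01% of all tested genes called higher in 12Q, 3.16% called lower and 4.17% in either direction. Of the 32, 10 had an unadjusted p under 0.05, as did 3961 of the 15050 tested genes. DESeq2 called 4 higher (Fdps, Sqle, Nsdhl and Srebf2), beside 5.81% of all genes with an adjusted p, and 2 lower (Fads1 and Fads2), beside 9.93%. The 3 comparisons share libraries in pairs, so their values are set side by side without a test of overlap.

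**Figure D1:**
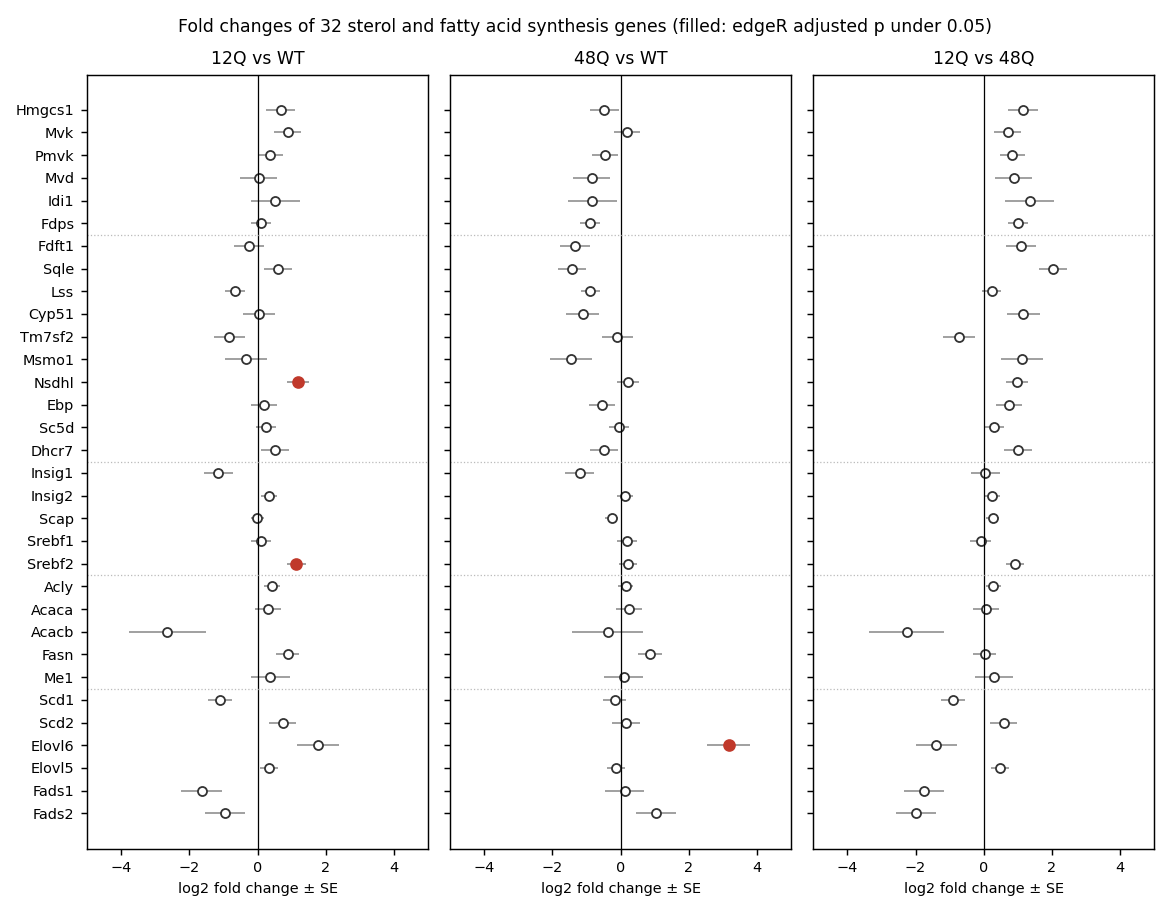
log2 fold change ± standard error of each of the 32 genes in the 3 comparisons (x axis, positive where the first-named group is higher), with genes in pathway order on the y axis and filled points for an edgeR adjusted p under 0.05. Filled points are Nsdhl and Srebf2 in 12Q against WT and Elovl6 in 48Q against WT, while 15 of the first 16 points lie right of 0 in 12Q against 48Q.

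Per kilobase of the gene length given in the deposited table, Scd2, a stearoyl-CoA desaturase, had the highest mean level of the 32 genes in each group, at 267 CPM per kb in 12Q, 179 in 48Q and 160.4 in WT. Acly, ATP citrate lyase, came second in each group at 67.4, 55.7 and 50.3 CPM per kb. At the other end were Acacb, the acetyl-CoA carboxylase tied to mitochondria, at 0.0630, 0.307 and 0.398 CPM per kb, and the isopentenyl diphosphate isomerase Idi1, at 0.484, 0.188 and 0.337. Idi1 and Acacb are therefore measured from few reads, 13 to 49 counts and 8 to 141 counts per library.

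**Figure D2:**
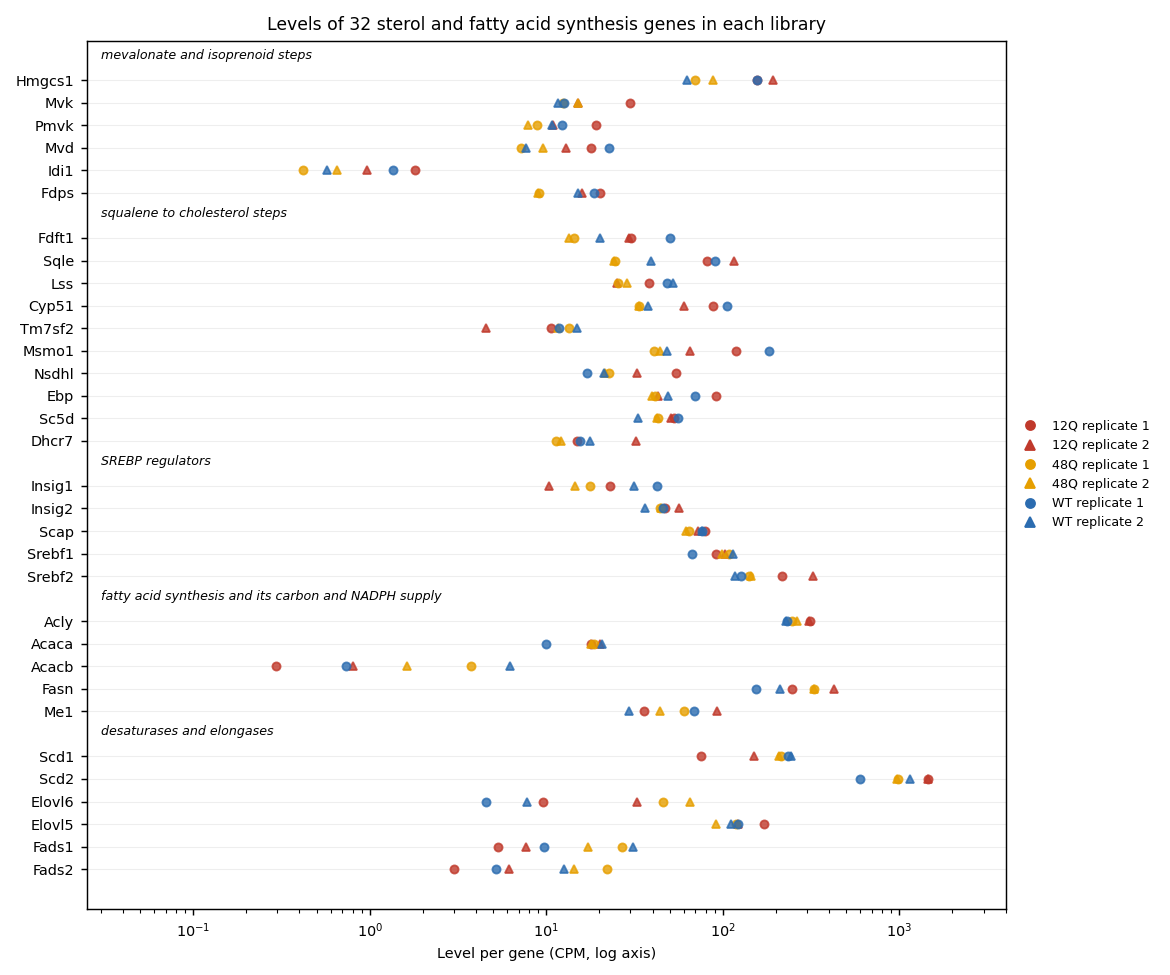
Level of each of the 32 genes in CPM (x axis, log scale, not divided by gene length) in each of the 6 libraries, grouped by role, with color for the group and marker shape for the replicate. The 48Q pair lies close together for most genes, whereas the WT pair is far apart for Msmo1 (184 and 48.4 CPM) and Acacb (0.730 and 6.23 CPM).

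The early, mevalonate part of sterol synthesis was represented by 6 genes, of which 0 passed the edgeR test in any comparison (unadjusted p under 0.05 in 0 genes in 12Q against WT, 1 in 48Q against WT and 2 between the tumors). Hmgcs1 (chromosome 13, 119690351 to 119708260 in mm10), the synthase that makes HMG-CoA, was 156 and 193 CPM in 12Q and 69.2 and 88.3 in 48Q, with 156 and 62.8 in WT. Both 12Q libraries lay above both 48Q libraries, whereas WT replicate 1 was level with the lower 12Q library and WT replicate 2 was the lowest of all 6. The log2 fold change of Hmgcs1 was 1.15 ± 0.44 (SE) for 12Q against 48Q (edgeR adjusted p = 0.163), 0.67 ± 0.43 for 12Q against WT (adjusted p = 0.297) and -0.47 ± 0.43 for 48Q against WT (adjusted p = 0.531). Without WT replicate 1 Hmgcs1 passed in 12Q against WT, at 1.48 with an adjusted p of 0.0399, and the 48Q against WT value turned to 0.32. It also turned, to 0.26, when library totals replaced TMM.

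Mvk, mevalonate kinase, had the largest change of these 6 genes in 12Q against WT, with 29.7 and 15.1 CPM in 12Q and 12.5 and 15.2 in 48Q, against 12.6 and 11.7 in WT. The 12Q pair differed by 1.96 times within itself and its lower library was level with 48Q replicate 2, and the log2 fold change against WT was 0.89 ± 0.39 (edgeR adjusted p = 0.148). Idi1 had the largest change between the tumors, at 1.81 and 0.959 CPM in 12Q against 0.422 and 0.656 in 48Q, with 1.36 and 0.575 in WT. Its log2 fold change of 1.35 ± 0.72 between the tumors did not pass (edgeR adjusted p = 0.280), although the groups did not overlap.

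Fdps, farnesyl diphosphate synthase, had the largest change of the 6 in 48Q against WT. Its levels were 20.2 and 16.0 CPM in 12Q and 9.09 and 9.01 in 48Q, while the WT libraries were at 18.6 and 15.2. The 48Q libraries, equal to within 1.01 times, lay below every 12Q and WT library, and the 12Q and WT ranges overlapped. The log2 fold change was -0.90 ± 0.30 for 48Q against WT (edgeR adjusted p = 0.134; DESeq2 adjusted p = 0.0391) and 1.00 ± 0.30 for 12Q against 48Q (edgeR adjusted p = 0.109; DESeq2 adjusted p = 0.0200). The phosphomevalonate kinase Pmvk and the decarboxylase Mvd ranged from 7.20 to 22.6 CPM over the 6 libraries, with log2 fold changes of 0.84 and 0.88 between 12Q and 48Q.

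From squalene to cholesterol, 10 genes were measured. In 12Q against WT 1 passed, Nsdhl, and in the other 2 comparisons edgeR called 0 of them, with 3 and 4 at an unadjusted p under 0.05. Nsdhl (chromosome X, 72918521 to 72958528) was 54.3 and 32.8 CPM in 12Q and 22.8 and 21.6 in 48Q, with 17.0 and 21.1 in WT. Both 12Q libraries lay above the other 4, which spanned 17.0 to 22.8 CPM. Nsdhl rose in 12Q against WT by 1.19 ± 0.32 on the log2 scale (edgeR adjusted p = 0.0436), and was 0.97 ± 0.32 higher in 12Q than in 48Q without passing (adjusted p = 0.126) and 0.22 ± 0.32 from WT in 48Q (adjusted p = 0.703). The call in 12Q against WT was lost without any 1 library other than 12Q replicate 2, namely without 12Q replicate 1 (0.83, adjusted p = 0.0935), 48Q replicate 1 (1.19, 0.104) or 2 (1.19, 0.105), WT replicate 1 (1.05, 0.133) or WT replicate 2 (1.35, 0.0833). It was also lost when only 12Q and WT were fitted (1.18, 0.102) and with the replicate number as a block (1.16, 0.0614).

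Sqle (chromosome 15, 59315092 to 59331193), squalene epoxidase, a rate-limiting step of the pathway after mevalonate, had the largest change of these 10 genes between the tumor groups. It was 81.7 and 116 CPM in 12Q and 24.4 and 24.1 in 48Q, against 90.4 and 39.4 in WT. Every 48Q value was below every 12Q and WT value, and the WT values lay on either side of the lower 12Q value. Sqle was 4.08 times higher in 12Q than in 48Q, a log2 fold change of 2.03 ± 0.42 that just missed the threshold (edgeR adjusted p = 0.0535). It passed with no filter on low counts (edgeR adjusted p = 0.0415), with only the tumors fitted (edgeR, 0.0386), with DESeq2 (0.000480), and without either WT library. It did not pass with DESeq2 size factors within edgeR, library totals or the replicate number as a block, nor without any 1 tumor library. Leaving out 1 library at a time gave log2 fold changes of 1.76 to 2.29. Against WT, Sqle was -1.42 ± 0.42 in 48Q (edgeR adjusted p = 0.101) and 0.61 ± 0.41 in 12Q (adjusted p = 0.319), and the 48Q value passed with DESeq2 (-1.46, adjusted p = 0.0218) and without WT replicate 2 (-1.91, adjusted p = 0.0447).

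Msmo1, the C4 methylsterol oxidase that acts just before Nsdhl, had the largest change of this group in 48Q against WT, with 118 and 65.3 CPM in 12Q and 40.6 and 44.4 in 48Q, while the WT libraries were at 184 and 48.4. WT replicate 1 was 3.79 times WT replicate 2, and the log2 fold change of -1.45 ± 0.62 did not pass (edgeR adjusted p = 0.211), and it shrank to -0.19 without WT replicate 1. Tm7sf2, a C14 sterol reductase picked out here after its values were seen, was the exception among the sterol genes. It was 10.6 and 4.58 CPM in 12Q and 13.5 and 11.6 in 48Q, with 11.8 and 14.9 in WT, below both other groups in 12Q, without passing in 12Q against 48Q (log2 fold change -0.73 ± 0.46, edgeR adjusted p = 0.352). Its exons overlap Vps51 on the same strand, so its level is uncertain. The other 6 genes (Fdft1, Lss, Cyp51, Ebp, Sc5d and Dhcr7) ranged from 11.4 to 106 CPM, with log2 fold changes of 0.23 to 1.15 between 12Q and 48Q. Of these, Fdft1 and Lss passed in 48Q against WT with DESeq2, at -1.38 (adjusted p = 0.0397) and -0.92 (adjusted p = 0.0395), against edgeR adjusted p of 0.128 and 0.117.

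As a group, the 16 sterol genes had a median log2 fold change of 0.98 in 12Q against 48Q, where the median of all tested genes was 0.00. With TMM, DESeq2 size factors and library totals alike, 15 of 16 were positive, Tm7sf2 being the exception. Of the 15050 tested genes 7550, 7700 and 6133 were positive. The median of the 16 genes was 0.98, 1.00 and 0.79. In 13 of the 16, both 12Q libraries lay above both 48Q libraries, beside 31.3% of all tested genes, and in 1 both lay below, beside 35.5%. In 6 of the 16 the log2 fold change was at least 1, beside 9.35% of all tested genes. Without 12Q replicate 1 the median was 0.65 and 14 of 16 were positive. Cell cycle, basal, smooth muscle and fibroblast markers differed between the same groups in the ranges given above (fibroblast sum 137 to 402 CPM in 12Q and 804 to 935 in 48Q), and their part in this difference was not tested.

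In 48Q against WT, 14 of the 16 sterol genes had a negative log2 fold change with TMM and with DESeq2 size factors and 8 of 16 with library totals, where the median of all genes shifted to 0.71 and that of the 16 genes was 0.03. The median with TMM was -0.68, beside 0.02 over all tested genes. For 9 of the 16 genes both 48Q libraries lay below both WT libraries, beside 29.8% of all tested genes, and for 1, Nsdhl, both lay above, beside 34.7%. In 4 of the 16 the log2 fold change was at most -1, beside 9.40% of all tested genes. Without WT replicate 1 the median was -0.22, with 11 of 16 negative, and without WT replicate 2 it was -0.92.

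In 12Q against WT, 12 of the 16 sterol genes were positive with TMM and with DESeq2 size factors and 14 with library totals. The median with TMM was 0.21, beside -0.01 over all tested genes, and 2 genes lay wholly above WT, beside 30.1% of all tested genes, and 2 wholly below, beside 30.4%. Leaving out WT replicate 1 gave a median of 0.80, and leaving out WT replicate 2 or 12Q replicate 1 gave -0.04 and -0.03.

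The WT libraries were far apart for these genes, and the 12Q libraries differed by a similar median. The median log2 difference of replicate 1 from replicate 2 was 0.63 in WT, 0.58 in 12Q and 0.003 in 48Q. Over all tested genes it was -0.09, 0 and 0.002. In WT replicate 1, 7 of the 16 sterol genes (43.8%) were at least 2 times the level of WT replicate 2, namely Hmgcs1, Mvd, Idi1, Fdft1, Sqle, Cyp51 and Msmo1, and 0 were at least 2 times lower. Over all tested genes 5.99% were at least 2 times higher in WT replicate 1 and 18.8% in WT replicate 2. The ratios of the 7 genes ran from 2.16 for Idi1 to 3.79 for Msmo1, and Nsdhl, Lss, Tm7sf2 and Dhcr7 were between 0.794 and 0.919. In 48Q, 0 of the 16 differed by 2 times between replicates, beside 3.21% of all tested genes higher in replicate 1 and 1.64% in replicate 2. In 12Q, 2 were higher in replicate 1 (Tm7sf2 and Ebp), beside 6.98%, and 1 in replicate 2 (Dhcr7), beside 13.5%. WT replicate 1 also had 7 of the 8 adipocyte genes at 0 counts, against 0 of 8 in WT replicate 2, a smooth muscle sum of 2310 CPM against 5839, and a sum over 8 squamous genes of 232 CPM against 15.5. The part of these differences in the WT gap was not tested.

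**Figure D3:**
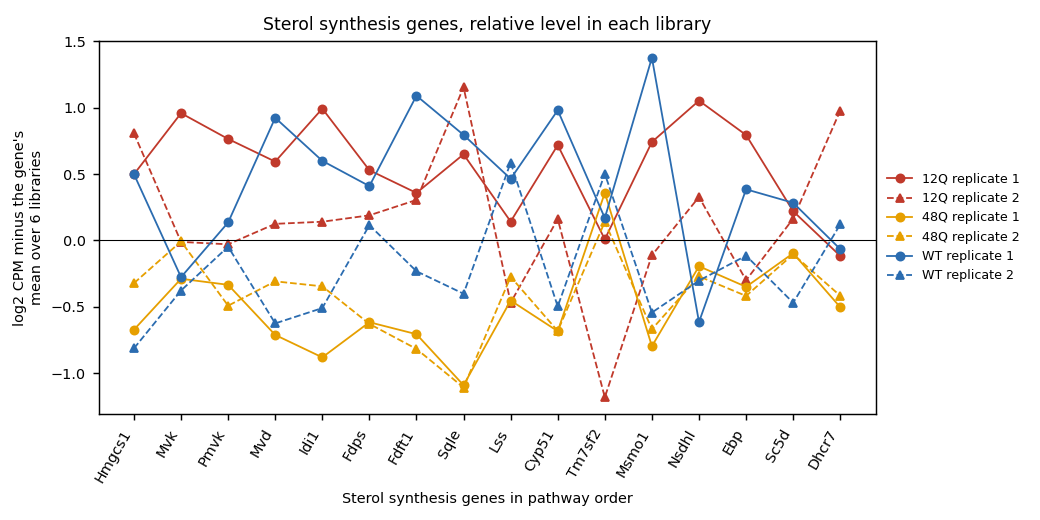
Relative level of the 16 sterol synthesis genes in pathway order (x axis) in each library, as log2 of CPM plus 0.1 minus the gene's mean over the 6 libraries (y axis), with color for the group and solid or dashed lines for replicates 1 and 2. Medians over the genes are 0.62 and 0.15 in 12Q and -0.56 and -0.38 in 48Q, against 0.44 and -0.34 in WT, so that WT replicate 1 lies near 12Q and WT replicate 2 near 48Q.

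Among the 5 SREBP regulators, Srebf2 (chromosome 15, 82147269 to 82204960) passed in 12Q against WT and no other gene passed in any comparison with edgeR. Srebf2 was 217 and 324 CPM in 12Q and 141 and 145 in 48Q, while the WT libraries were at 127 and 118. The 3 groups did not overlap, and 12Q was highest. Srebf2 rose in 12Q against WT by 1.14 ± 0.27 on the log2 scale (edgeR adjusted p = 0.0299). In 48Q it was 0.22 ± 0.26 from WT (adjusted p = 0.641), and 12Q was 0.92 ± 0.27 above 48Q without passing (edgeR adjusted p = 0.0996; DESeq2 adjusted p = 0.0272). The call against WT was kept without 12Q replicate 1 (1.45, adjusted p = 0.0178) and lost without 12Q replicate 2 (0.83, 0.0653), 48Q replicate 1 (1.14, 0.0923), 48Q replicate 2 (1.14, 0.0925), WT replicate 1 (1.20, 0.0726) or WT replicate 2 (1.08, 0.0858), and with only 12Q and WT fitted (1.13, 0.0902).

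Srebf1, whose product mainly drives fatty acid genes, did not separate the groups, with 91.7 and 103 CPM in 12Q and 108 and 99.4 in 48Q, with 66.6 and 115 in WT. Its log2 fold changes were 0.10 ± 0.30, 0.19 ± 0.30 and -0.09 ± 0.30 in 12Q against WT, 48Q against WT and 12Q against 48Q (edgeR adjusted p = 0.836, 0.724 and 0.859), and its exons overlap Rai1 on the opposite strand. Insig1, an SREBP target that holds SCAP back, was 22.9 and 10.4 CPM in 12Q and 17.6 and 14.5 in 48Q, against 42.3 and 31.4 in WT. All 4 tumor libraries were below both WT libraries, and the tumor groups overlapped. The log2 fold change of Insig1 was -1.15 ± 0.42 in 12Q (edgeR adjusted p = 0.0988; DESeq2 adjusted p = 0.0479) and -1.20 ± 0.42 in 48Q (edgeR adjusted p = 0.150), and without 12Q replicate 1 the 12Q value passed (-1.78, adjusted p = 0.0322). Insig2 and Scap ranged from 36.1 to 56.7 CPM and from 62.0 to 78.8 CPM, with log2 fold changes of -0.27 to 0.35.

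The 5 genes of fatty acid synthesis proper and its supply gave no edgeR call in any comparison, with 1, 1 and 0 genes at an unadjusted p under 0.05 in 12Q against WT, 48Q against WT and 12Q against 48Q. Acly was 311 and 307 CPM in 12Q and 247 and 263 in 48Q, while the WT libraries were at 232 and 229. The 3 groups did not overlap, with 12Q highest, and the log2 fold change against WT was 0.42 ± 0.22 in 12Q (edgeR adjusted p = 0.213) and 0.15 ± 0.22 in 48Q (adjusted p = 0.717). Only with library totals did Acly pass, in 12Q against WT (0.93, adjusted p = 0.0258), where the median of all genes was 0.48.

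Fasn (chromosome 11, 120805958 to 120824547), fatty acid synthase, was 245 and 427 CPM in 12Q and 329.7 and 329.9 in 48Q, with 154 and 210.3 in WT. All 4 tumor libraries lay above both WT libraries, and the 48Q values lay between the 12Q values. The log2 fold change was 0.88 ± 0.34 in 12Q against WT (edgeR adjusted p = 0.112) and 0.86 ± 0.34 in 48Q against WT (adjusted p = 0.189). Between the tumors it was 0.03 ± 0.34 (edgeR adjusted p = 0.965), a difference whose sign turned with the scaling (-0.14 with library totals). Fasn passed in 12Q against WT with library totals (1.39, adjusted p = 0.0443) and without 12Q replicate 1 (1.28, adjusted p = 0.0393).

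Acacb had the most extreme log2 fold change of the 32 genes in both 12Q comparisons, from 0.296 and 0.805 CPM in 12Q and 3.73 and 1.63 in 48Q, against 0.730 and 6.23 in WT. The WT libraries differed by more than the groups did, and the log2 fold changes of -2.65 ± 1.12 in 12Q against WT (edgeR adjusted p = 0.137) and -2.26 ± 1.11 in 12Q against 48Q (adjusted p = 0.249) did not pass. Without WT replicate 2 the 12Q against WT value was -0.40. The summed adipocyte markers were 1.72 CPM in WT replicate 1 and 11.1 in WT replicate 2, and 21.2 and 31.4 in the 12Q libraries, where Acacb was lowest on average. The 12Q sums were mostly Fabp4, at 21.2 and 31.3 CPM. Of the 8 adipocyte genes, 6 were at 0 counts in each 12Q library and 7 in WT replicate 1. In WT replicate 2 and 48Q replicate 1 the number at 0 counts was 0, and in 48Q replicate 2 it was 1. Their part in the Acacb values was not tested. The cytosolic carboxylase Acaca and the malic enzyme Me1, which yields NADPH, ranged from 10.01 to 20.7 CPM and from 29.5 to 92.4 CPM, with log2 fold changes of 0.06 to 0.38.

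Desaturases and elongases, 6 genes, differed among themselves in direction. The single call was Elovl6 (chromosome 3, 129532386 to 129638493), at 9.62 and 32.7 CPM in 12Q and 46.1 and 64.8 in 48Q, while the WT libraries were at 4.54 and 7.83. The 3 groups did not overlap, with 48Q highest and WT lowest. Elovl6 rose in 48Q against WT by 3.16 ± 0.64 on the log2 scale (edgeR adjusted p = 0.0480). In 12Q it was 1.77 ± 0.61 above WT without passing (edgeR adjusted p = 0.0838; DESeq2 adjusted p = 0.0180; without 12Q replicate 1 2.45, edgeR adjusted p = 0.0229), and 12Q against 48Q was -1.39 ± 0.60 (adjusted p = 0.202). The 48Q call was lost without 48Q replicate 1 (3.38, adjusted p = 0.103), 48Q replicate 2 (2.89, 0.180), WT replicate 1 (2.82, 0.203) or WT replicate 2 (3.60, 0.0838), and its exons overlap the predicted gene Gm35986 on the opposite strand.

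Scd1 and Scd2 put the first double bond into saturated acyl chains and lie 87.6 kb apart on chromosome 19. Their estimates in 12Q had opposite signs, and none passed in the main edgeR fit. Scd1 was 74.8 and 149 CPM in 12Q and 213 and 208 in 48Q, with 233 and 243 in WT. Scd1 in 12Q lay below all other libraries, with a log2 fold change of -1.09 ± 0.35 against WT (edgeR adjusted p = 0.0709; DESeq2 adjusted p = 0.0310) and -0.91 ± 0.35 against 48Q (adjusted p = 0.166). Without 12Q replicate 2 the first of these passed (-1.67, adjusted p = 0.0238).

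Scd2 was 1454 and 1459 CPM in 12Q and 983 and 965 in 48Q, against 602 and 1145 in WT. Both 12Q libraries were above the other 4, and the WT values enclosed those of 48Q. Its log2 fold change was 0.74 ± 0.40 in 12Q against WT (edgeR adjusted p = 0.227), 0.16 ± 0.40 in 48Q against WT (adjusted p = 0.838) and 0.58 ± 0.40 in 12Q against 48Q (adjusted p = 0.389). The 2 genes belong to a family of close copies, so reads may have been shared or lost between them in counting.

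Fads1 and Fads2, the desaturases of polyunsaturated fatty acids, lie 81.4 kb apart on chromosome 19, and both had their lowest mean in 12Q. Fads2 was 2.997 and 6.19 CPM in 12Q and 22.2 and 14.3 in 48Q, while the WT libraries were at 5.22 and 12.6. Both 48Q libraries were above the other 4, and 12Q and WT overlapped. The log2 fold change of Fads2 was -1.99 ± 0.59 in 12Q against 48Q (edgeR adjusted p = 0.106; DESeq2 adjusted p = 0.0134) and 1.04 ± 0.58 in 48Q against WT (adjusted p = 0.313). Fads1, named beside it after its values were seen, was 5.36 and 7.64 CPM in 12Q and 26.8 and 17.3 in 48Q, with 9.65 and 30.9 in WT, and its log2 fold change of -1.76 ± 0.59 in 12Q against 48Q did not pass with edgeR (adjusted p = 0.132) and passed with DESeq2 (adjusted p = 0.0330). Without WT replicate 1, Fads1 passed in 12Q against WT (-2.24, edgeR adjusted p = 0.0345). The elongase Elovl5 ranged from 91.7 to 170.3 CPM, with log2 fold changes of -0.14 to 0.47.

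Over the 11 fatty acid genes the median log2 fold change was 0.33 in 12Q against WT, 0.15 in 48Q against WT and 0.03 between the tumors, where 6 were positive and 5 negative with TMM and 4 and 7 with library totals. In 12Q against 48Q, 3 of the 11 lay wholly above, beside 31.3% of all tested genes, and 5 wholly below, beside 35.5%. The 6 desaturases and elongases alone had a median of -1.15 in that comparison, with 4 of 6 wholly below, namely Scd1, Elovl6, Fads1 and Fads2. The same comparison without 12Q replicate 2 gave a median of -0.53 over the 11 genes, with 3 positive, and without 12Q replicate 1 0.17 with 6 positive. Within WT, 4 of the 11 genes (36.4%) were at least 2 times higher in replicate 2, beside 18.8% of all tested genes. In WT replicate 1 it was 1 of the 11, beside 5.99%, so all tested genes leaned to the same side. In 12Q, 4 of the 11 were at least 2 times higher in replicate 2 and 0 in replicate 1, where over all tested genes 13.5% and 6.98% were.

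Around these pathways, 83 other lipid genes in 6 lists were looked up, of which 82 were in the table and 76 were tested. In 12Q against WT 14 were called higher and 6 lower, in 48Q against WT 8 higher and 1 lower, and in 12Q against 48Q 2 higher and 0 lower (edgeR), beside the background shares of 11.2% and 11.2%, 3.95% and 1.23%, and 1.01% and 3.16%. DESeq2 called 7 higher and 1 lower between the tumors, beside 5.81% and 9.93% of all genes with an adjusted p. In edgeR 17 of the 76 had an unadjusted p under 0.05 there, beside 3961 of the 15050 tested genes. Of the 9 other sterol and isoprenoid genes, 1 rose in 12Q against WT, Lbr, and edgeR called 0 in the other 2 comparisons. In those, 2 had an unadjusted p under 0.05 in 48Q against WT and 0 between the tumors. Of the 5 SREBP processing genes tested, edgeR called 0 in each comparison. In 48Q against WT all 5 were negative with TMM and all 5 positive with library totals. Of 11 other elongases, desaturases and fatty acid regulators tested, edgeR called 1 higher in each comparison, Elovl4, and 0 lower.

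Lbr, a lamin B receptor that also has C14 sterol reductase activity, as Tm7sf2 does, was 55.9 and 60.7 CPM in 12Q and 38.5 and 41.9 in 48Q, while the WT libraries were at 12.9 and 22.9. Lbr was 1.70 ± 0.32 higher in 12Q than in WT on the log2 scale (edgeR adjusted p = 0.0164; 0.0535 without 12Q replicate 2), where Tm7sf2 was -0.82 ± 0.46 (adjusted p = 0.241).

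Genes of sterol uptake, efflux and storage rose in 6 of 16 tested in 12Q against WT, beside 11.2% of all tested genes. In 48Q against WT 4 of 16 rose, beside 3.95%. None was called lower in either, beside 11.2% and 1.23%. Between the tumors 0 of 16 were called, with 2 at an unadjusted p under 0.05 and a median log2 fold change of -0.01. Scarb1, the HDL receptor, was 81.7 and 79.1 CPM in 12Q and 45.4 and 55.2 in 48Q, against 19.4 and 18.1 in WT, a rise of 2.10 ± 0.22 in 12Q (edgeR adjusted p = 0.00444) and 1.42 ± 0.22 in 48Q (adjusted p = 0.0273). Soat1, which esterifies cholesterol for storage, rose by 2.78 ± 0.44 and 2.70 ± 0.44 (adjusted p = 0.0106 and 0.0305), from 6.42 and 9.20 CPM in WT to 35.6 and 71.9 in 12Q and 60.8 and 40.9 in 48Q.

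The lysosomal lipase Lipa rose by 1.49 ± 0.25 in 12Q and 1.81 ± 0.25 in 48Q (edgeR adjusted p = 0.0120 and 0.0225). Apoe, a lipoprotein component that macrophages express strongly, rose by 1.62 ± 0.31 and 2.43 ± 0.32 (adjusted p = 0.0176 and 0.0196), at 269 and 384 CPM in 12Q and 527 and 615 in 48Q, while the WT libraries were at 90.3 and 122. The sum of 7 macrophage markers was 198 to 212 CPM in 12Q, 251 to 263 in 48Q and 72.3 to 73.7 in WT. The 7 markers did not all rise. In 12Q against WT 5 were called higher and 1 lower, with a lowest log2 fold change of -6.53, and in 48Q against WT 5 higher and 0 lower. The part of these markers in the rises of Lipa and Apoe was not tested. The other 2 genes called in 12Q, the sterol exporter Abcg1 and the cholesterol hydroxylase Ch25h, fall outside the naming rule and were named after their values were seen. Apoe and Soat1 lost the 12Q call without WT replicate 1 (edgeR adjusted p = 0.0594 and 0.0532), and Lipa when only 12Q and WT were fitted (0.0505).

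Elovl4 (chromosome 9), which makes very long chain fatty acids, was 58.2 and 98.0 CPM in 12Q and 3.28 and 10.8 in 48Q, with 0.261 and 0.354 in WT. The groups were separate, and Elovl4 rose by 7.96 ± 0.80 in 12Q against WT, 4.49 ± 0.73 in 48Q against WT and 3.47 ± 0.62 between the tumors on the log2 scale (edgeR adjusted p = 0.00407, 0.0305 and 0.0395). The first call held without each library in turn. The 48Q call was lost without 48Q replicate 2 (adjusted p = 0.0595), WT replicate 1 (0.160) or WT replicate 2 (0.0808), and the call between tumors without any 1 library other than 48Q replicate 2 (0.0586 to 0.114), with library totals (0.0582) and with only the tumors fitted (3.48, 0.0573).

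Among the 14 genes of triglyceride synthesis and lipid droplets, 4 rose and 3 fell in 12Q against WT, beside 11.2% and 11.2% of all tested genes. In 48Q against WT 2 rose and 1 fell, beside 3.95% and 1.23%. Dgat2, which makes triglyceride, was 15.5 and 17.0 CPM in 12Q and 5.30 and 4.36 in 48Q, against 0.574 and 1.15 in WT, a rise of 4.22 ± 0.50 and 2.47 ± 0.47 (edgeR adjusted p = 0.00558 and 0.0427). Pparg, a lipid-storage transcription factor, rose by 3.51 ± 0.50 and 2.74 ± 0.49 (adjusted p = 0.00823 and 0.0363) to between 4.43 and 9.38 CPM in the tumors. The acyltransferase Agpat2 was 42.4 and 38.3 CPM in 12Q and 14.8 and 16.9 in 48Q, while the WT libraries were at 11.2 and 9.99. Agpat2 rose in 12Q against WT by 1.93 ± 0.26 and against 48Q by 1.35 ± 0.26 (edgeR adjusted p = 0.00735 and 0.0449), and its exons overlap Egfl7 on the opposite strand. The call between tumors was lost without any 1 tumor library (adjusted p = 0.0790 to 0.382), with library totals (0.0626) and with the replicate number as a block (1.35, 0.0651).

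The droplet coat gene Plin2 rose in 12Q by 2.68 ± 0.45 (edgeR adjusted p = 0.0119; 0.0576 without WT replicate 1). Agpat1 fell in 48Q, by 1.20 ± 0.20 on the log2 scale (adjusted p = 0.0324), from 152 and 163 CPM in WT to 69.3 and 67.7, and the call was lost with library totals (-0.51, adjusted p = 0.112). The 3 genes lower in 12Q were Agpat1, Lpin1 and Mogat1, named after their values were seen. Adipocyte markers, which Pparg, Dgat2 and Plin2 can accompany, were at 0 counts for 6 of 8 genes in each 12Q library, while Fabp4 was also called higher in 12Q (edgeR adjusted p = 0.0375). Of 8 sebocyte genes, Awat1 and Dgat2l6 were at 0 in all 6 libraries and the sum, mostly Mgst1, was 221 to 316 CPM in 12Q, 100.1 to 109 in 48Q and 11.5 to 16.7 in WT. The part of either list was not tested.

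In fatty acid uptake, activation and oxidation, 2 of 21 genes rose and 3 fell in 12Q against WT, beside 11.2% and 11.2% of all tested genes, and 1 rose in 48Q, beside 3.95%. These counts are near the background. The transporter Slc27a4 and the lipoprotein lipase Lpl rose in 12Q by 1.17 ± 0.25 and 1.11 ± 0.29 (edgeR adjusted p = 0.0244 and 0.0415). The acyl-CoA synthetase Acsl3 and the oxidation regulator Ppara fell in 12Q, by 2.06 ± 0.46 and 2.12 ± 0.51 on the log2 scale (adjusted p = 0.0268 and 0.0320), and Acsl1, named after its values were seen, was the third gene lower. Slc27a1 rose in 48Q by 1.80 ± 0.34 (adjusted p = 0.0399). The Lpl call was lost without any 1 library (adjusted p = 0.0635 to 0.133), Slc27a4 without 12Q replicate 2 or either 48Q library (0.0702 to 0.0717), Acsl3 without either 12Q library or WT replicate 1 (0.0603 to 0.108), and Ppara without any library but 12Q replicate 1 (0.0610 to 0.0899) and with library totals (0.0559). With only 12Q and WT fitted, Slc27a4, Lpl and Ppara did not pass (0.0664, 0.0697 and 0.0717).

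Most calls among the other lipid genes in 48Q against WT were lost when 1 of its 4 libraries was left out. Without 48Q replicate 1, 1 gene (Elovl4) was called higher in place of 8, and without 48Q replicate 2 or WT replicate 1 the count was 0, while over all tested genes the count of genes called higher went from 595 to 122, 98 and 0. Without WT replicate 2 the count was 6, beside 301 over all genes. Of these 6, 3 were among the 8 (Apoe, Slc27a1 and Dgat2), while Elovl4, Lipa, Pparg, Scarb1 and Soat1 lost the call (adjusted p = 0.0512 to 0.0808). Agpat1 lost its call without any 1 of the 4 libraries (0.0538 to 0.308). Dgat2 also missed the threshold in 48Q with only 48Q and WT fitted (edgeR adjusted p = 0.0563) and without 12Q replicate 2 (0.0519).

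**Figure D4:**
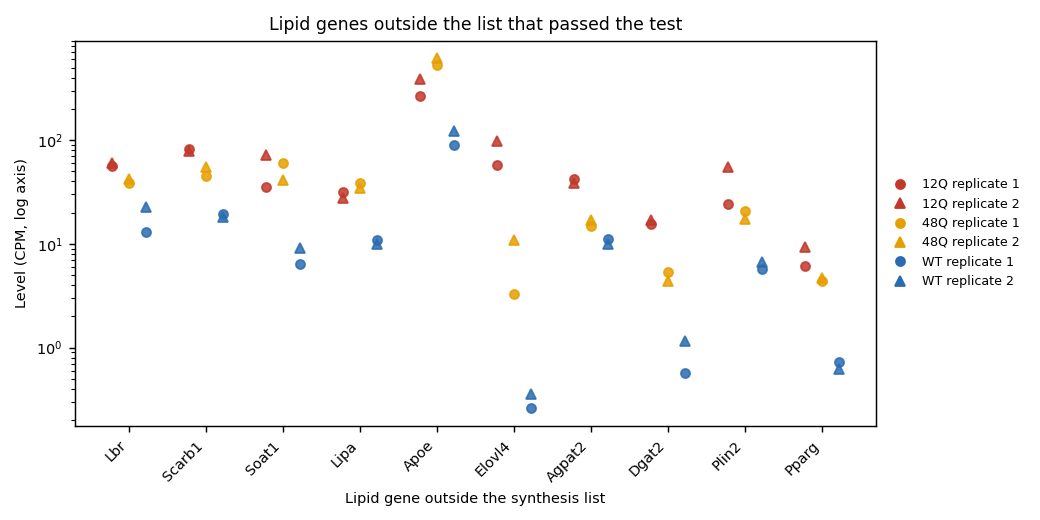
Levels in CPM (y axis, log scale, not divided by gene length) of 10 lipid genes outside the 32 that passed the edgeR test in at least 1 comparison, in each of the 6 libraries, with color for the group and marker shape for the replicate. All 10 are among the 14 other lipid genes called higher in 12Q against WT, and none of the 6 called lower there is shown. In each of the 10, every tumor library is higher than every WT library, and Elovl4 and Agpat2 also passed between 12Q and 48Q.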

How the data were processed

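Per the labels' protocols, total RNA of freshly taken tumors and normal glands was isolated using RNA-Bee, and libraries used Kapa's RNA Hyperprep chemistry. The authors deposited 1 table of whole-number read counts per gene, without normalization. The submitters' processing notes name TopHat2 2.0.14, HTSeq 0.6.0 and the mm10 build. For the annotation, the strand setting and multiply mapped reads, the sources used here give nothing. Columns were matched to libraries by the identifier in each sample's description. 12 of the 32 genes overlap exons of another gene in GENCODE M21 (Hmgcs1, Idi1, Fdps, Fdft1, Lss, Cyp51, Tm7sf2, Scap, Srebf1, Me1, Scd2 and Elovl6), as do Lbr, Acsl1, Acsl3, Agpat1, Mogat1 and Ch25h, so their counts are uncertain.

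Genes were kept by filterByExpr (minimum count 10, minimum total 15). Counts were scaled by TMM and tested with the quasi-likelihood F test of edgeR 4.0.16 under R 4.3.3 fitted to all 3 groups together (3 residual degrees of freedom), adjusted by Benjamini and Hochberg over 15050 genes at 0.05. Standard errors are the log2 fold change divided by the square root of F. The common dispersion was 0.143. The steps were tested on simulated data. Alternatives were DESeq2's size factors, library totals, no filter, DESeq2 1.42.0's Wald test, only the 2 compared groups, the replicate number as a block, and leaving out each library. Where that leaves 1 library in a group, it is assumed to vary like the others.

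Values per library are given for genes past the threshold, for Hmgcs1, Sqle, Srebf1, Srebf2, Insig1, Acly, Fasn, Scd1 and Scd2, and for the member with the largest change per role and comparison. Of other lipid lists, up to 4 called genes per list and comparison with the smallest adjusted p are named. The 32 genes and all lists were chosen with earlier results of these data known. Replicates differed by more than sampling noise (42.2 to 277 chi-square units per degree of freedom), so none was a copy. Some genes, 2 of the other lipid lists among them, are not reported here and are in no list count.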

Additional observations from a re-analysis of the deposited data

Results flagged for a closer look

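Of the lipid genes, 0 of the 32 synthesis genes and 2 of the 76 others tested had effects against WT that differed between the 12Q and 48Q genotypes. This was tested as the direct contrast of the 2 tumor groups in the edgeR fit, where 4.17% of all tested genes were called in either direction. Elovl4 differed by 3.47 on the log2 scale (adjusted p = 0.0395) and Agpat2 by 1.35 (adjusted p = 0.0449), each higher in both 12Q libraries than in both 48Q libraries. With 1 library left out at a time, Elovl4 passed in 1 of 6 fits and Agpat2 in 2 of 6. Both calls were lost with library totals (adjusted p = 0.0582 and 0.0626), that of Elovl4 also with only the tumors fitted (0.0573) and that of Agpat2 also with the replicate number as a block (0.0651). Neither is among the 32 synthesis genes.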

How the results depend on the processing

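With library totals in place of TMM, all genes called higher and lower numbered 3266 and 1032 (12Q against WT), 1921 and 83 (48Q against WT), and 62 higher between tumors. The 32 synthesis genes called higher in 12Q against WT became 7. Other lipid genes became 26 higher and 1 lower, 18 and 0, and 0 higher. DESeq2 gave 1592 and 962 in 48Q against WT, 10.3% and 6.21% of all genes with an adjusted p. Between tumors it gave 922 and 1575, 5.81% and 9.93%. It called 3 synthesis genes lower in 12Q against WT, 4 lower in 48Q against WT, and 4 higher and 2 lower between tumors, and for other lipid genes 13 and 8 in 48Q against WT and 7 and 1 between tumors. Fitting only the 2 compared groups gave 997 and 890 in 12Q against WT, 342 lower in 48Q against WT and 289 higher between tumors, with 0 and 1 synthesis genes higher in 12Q against WT and between tumors, and other lipid genes at 1 lower, 2 lower, and 6 higher and 1 lower. No filter gave 1 synthesis gene and 4 other lipid genes higher between tumors.

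Reversed estimates with library totals, of genes not called, were Hmgcs1 0.26 and Scd1 0.51 in 48Q against WT and Fasn -0.14 and Insig1 -0.16 between tumors. The cause was not tested. The labels state no pairing of samples by replicate number. Over genes, the correlation of replicate differences was 0.03 for 12Q and 48Q, 0.13 for 12Q and WT and -0.10 for 48Q and WT. With so few libraries, these values cannot decide whether samples were paired. With the replicate number as a block, other lipid genes called lower in 48Q against WT became 2 and those higher between tumors 1 (Agpat2 lost), with Fasn -0.029 and Insig1 -0.039 between tumors. In 12Q against WT the block gave Srebf2 and Elovl6 (1.62, adjusted p = 0.0352) but not Nsdhl (1.16, 0.0614).

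Leaving out 1 library at a time gave, in 12Q against WT, 993 to 1709 genes higher and 838 to 1346 lower, 0 to 3 synthesis genes higher and 0 to 1 lower, and 10 to 16 and 0 to 4 other lipid genes. In 48Q against WT the ranges were 0 to 858 and 0 to 390, 0 to 1 and 0 to 2, and 0 to 9 and 0 to 2. Between tumors they were 1 to 240 and 46 to 626, 0 to 1 higher, and 0 to 5 and 0 to 1. Reversals fell within Srebf1 -0.24 to 0.54 in 12Q against WT. In 48Q against WT they were within Hmgcs1 -0.997 to 0.32, Scd2 -0.24 to 0.68 and Srebf1 -0.15 to 0.63. Between tumors they were within Fasn -0.42 to 0.40, Insig1 -0.60 to 0.52 and Srebf1 -0.17 to 0.014. DESeq2's size factors within edgeR kept every count within 1.5 times of the main one.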
